A study of Danio rerio with 20 samples.

Results

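col11a1b, 1 of 14781 named genes in the matrix, encodes an alpha 1 chain of collagen XI in zebrafish. It was found by its symbol and followed through all 10 groups of an experiment on heart injury. The gene was chosen by its measured rise over untouched hearts in these same libraries, so its injured levels against untouched levels are given as a description, with no test. Tests were kept for other contrasts, namely differences between genotypes at a time and between injured times. These use the same libraries as the rise, so they are not independent of that choice.

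Collagen XI is a minor fibrillar collagen, best known from cartilage, where it lies within fibrils of collagen II and limits their diameter. Its molecules are triple helices of alpha chains encoded by COL11A1, COL11A2 and the collagen II gene in mammals. Outside cartilage the alpha 1 chain of collagen XI can combine with chains of collagen V in fibrils that are mostly collagen I. The zebrafish has a second COL11A1 copy, the paralogue col11a1a.

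The samples were cardiomyocytes isolated from the hearts of adult zebrafish 4 to 6 months old, sequenced as bulk mRNA. The fish were wild type or kit mutants carrying kita(w34b2) and kitb(sa15356), alleles of both zebrafish kit receptor genes. Hearts were untouched, or were taken 2, 5, 7 or 14 days post injury (dpi) after about 20% of the ventricular apex had been cut away. Each library pooled 8 ventricles, and each of the 10 groups had 2 libraries, 20 in all.

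Libraries held 14.6 to 31.7 M (1000000) assigned reads, so that 3 reads, the floor used here, correspond to 0.0947 to 0.205 CPM (counts per 1000000 reads). This floor covers counting error only. Levels below are scaled CPM, the deposited CPM divided by a factor per library, and are not corrected for gene length. Cardiomyocyte markers were high: the 14 in the matrix summed to 52645 to 130412 scaled CPM per library. Of these, myl7, a myosin light chain of heart muscle, stood at 26127 scaled CPM in untouched wild type. Markers of other cell types were present too. In mutants at 2 dpi, 27 epicardium and fibroblast markers summed to 24103 to 24443, against 52645 to 53451 for cardiomyocyte markers. Which cells held col11a1b was not tested. Libraries of the mutant groups untouched, at 2 dpi and at 7 dpi were nearly the same within each pair (mean chi-square per gene 1.95 to 3.73, against 13.9 to 46.6 in the other 7 groups). Results for col11a1b, and for some other genes and lists, are therefore also given with these 3 pairs averaged. The labels do not say that replicates were separate preparations, so p-values here reflect no more than the variation among the sequenced libraries. Per the labels, the mutant pair at 2 dpi came from lane 7 and every other pair from lane 8. Where that pair is compared with another, lane cannot be told apart from time or genotype. Within lane 8 some sample-sheet numbers (30, 31, 32 and 35) occur in both genotypes. The labels name no sequencing run, so a difference between genotypes and one between runs cannot be told apart.

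In untouched hearts col11a1b lay close to the floor. The wild-type libraries held 2.92 and 1.65 scaled CPM (51 and 32 reads), and the mutant libraries 0.737 and 0.957 scaled CPM (13 and 15 reads). All 4 untouched libraries were above the floor of 3 reads, and the mutant pair was below the wild-type pair.

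After resection every library of both genotypes held at least 88.0 scaled CPM of col11a1b. In wild type the levels were 141 and 158 scaled CPM at 2 dpi, 174 and 167 at 5 dpi, 259 and 257 at 7 dpi, and 100.3 and 141 at 14 dpi. Wild-type libraries were highest at 7 dpi, with both above all other wild-type libraries, and the higher library of 14 dpi lay just below the lower one of 2 dpi. In mutants the levels were 243 and 235 scaled CPM at 2 dpi, 131 and 153 at 5 dpi, 151 and 144 at 7 dpi, and 88.0 and 145 at 14 dpi. The mutant libraries were highest at 2 dpi, and their pairs at 5, 7 and 14 dpi overlapped. In bulk samples, a change in the number of cells of a type and a change in RNA per cell cannot be told apart.

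**Figure D1:**
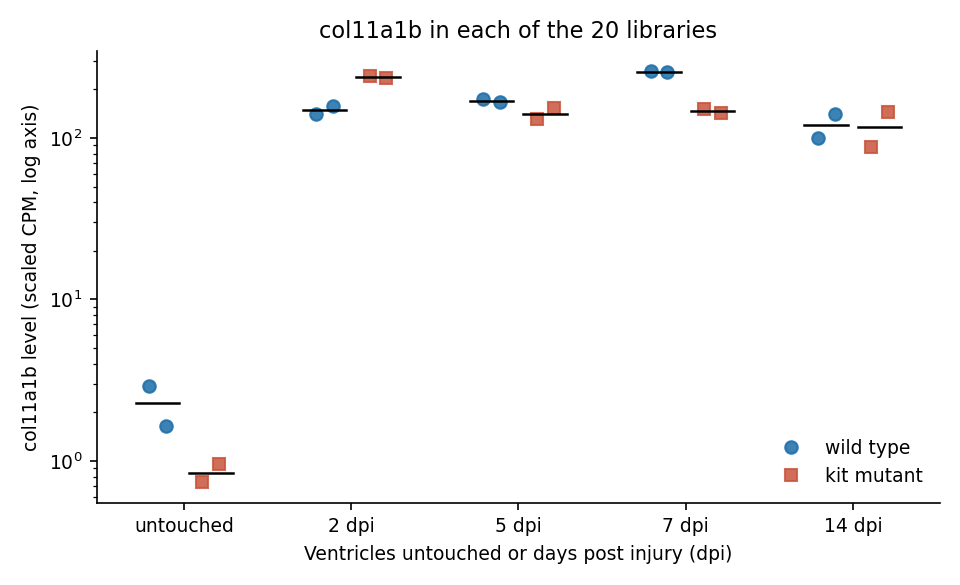
Level of col11a1b in each of the 20 libraries, as scaled CPM on a log axis, by time and genotype. Each point is a library and each black line a group mean; wild type peaks at 7 dpi (258 scaled CPM) and mutants at 2 dpi (239 scaled CPM), while untouched libraries lie between 0.737 and 2.92.

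Ordered by mean level (± SD, n = 2 libraries), untouched mutants were lowest at 0.847 ± 0.155 scaled CPM, followed by untouched wild type at 2.28 ± 0.901. The next 5 groups overlapped their neighbours in the order: mutants at 14 dpi (117 ± 40.5), wild type at 14 dpi (121 ± 28.8), mutants at 5 dpi (142 ± 15.1), mutants at 7 dpi (147 ± 4.94) and wild type at 2 dpi (149 ± 11.8). Wild type at 5 dpi (171 ± 4.60), mutants at 2 dpi (239 ± 5.17) and wild type at 7 dpi (258 ± 1.28) each lay above all groups before them, with no overlap.

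As a description, the mean at injured times was 65.5, 74.8, 113 and 52.9 times the untouched mean in wild type at 2, 5, 7 and 14 dpi. In mutants these folds were 282, 168, 174 and 138. On the scale of log2(scaled CPM + 1), on which all differences below are given, the rises were 5.54, 5.74, 6.33 and 5.22 in wild type and 7.02, 6.27, 6.33 and 5.95 in mutants. In all 8 comparisons with untouched hearts this was the largest rise among the 10914 genes tested. The log2 values are smaller than the folds imply because adding 1 raises the low untouched levels. For background, 26.4% of the tested genes were called higher in wild type at 2 dpi by limma at an adjusted p under 0.05, 15.9% at 5 dpi, 17.5% at 7 dpi and 13.2% at 14 dpi. In mutants those shares were 27.5%, 26%, 8.83% and 21.3%.

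Steps between successive injured times were tested in contrasts that leave out the untouched hearts but share the injured libraries that chose the gene. With limma, col11a1b passed only from 7 to 14 dpi in wild type and from 2 to 5 dpi in mutants. In wild type, col11a1b changed by 0.19 on the log2 scale from 2 to 5 dpi (95% interval -0.24 to 0.62; limma adjusted p = 0.466) and by 0.60 from 5 to 7 dpi (0.16 to 1.03; limma adjusted p = 0.0726). Neither step passed the threshold of 0.05, although with DESeq2 the step from 5 to 7 dpi did (0.60, adjusted p = 0.031). It then fell by 1.11 on the log2 scale from 7 to 14 dpi (95% interval -1.54 to -0.68; limma adjusted p = 0.00198), with both libraries at 14 dpi below both at 7 dpi. Over all tested genes, 45.4%, 10.7% and 17.8% passed in these 3 steps, in either direction.

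In mutants, the step that passed was the one from 2 to 5 dpi. Its 2 dpi pair carries the lane 7 label and its 5 dpi pair lane 8, so time and lane cannot be told apart in it. From 2 to 5 dpi col11a1b fell by 0.75 on the log2 scale (95% interval -1.18 to -0.32; limma adjusted p = 0.0043), with both libraries at 5 dpi below both at 2 dpi. This step still passed with the near-identical pairs averaged (limma adjusted p = 0.042), in a comparison where 62.6% of all tested genes passed. The differences were 0.05 from 5 to 7 dpi (-0.38 to 0.49; limma adjusted p = 0.849) and -0.38 from 7 to 14 dpi (-0.81 to 0.06; limma adjusted p = 0.197), where 42.9% and 23.3% of genes passed. Of these steps, the last passed without the second mutant library of 14 dpi (-0.73, limma adjusted p = 0.020).

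Between genotypes, mutants had less col11a1b than wild type in untouched hearts and at 7 dpi, and more at 2 dpi. In untouched hearts the difference was -0.81 (95% interval -1.24 to -0.37; limma adjusted p = 0.0050), a ratio of 1.75 in scaled CPM + 1. Without the first untouched wild-type library it was -0.52 (limma adjusted p = 0.090), and with the near-identical pairs averaged the adjusted p was 0.060. This call thus rested on single libraries with 13 to 51 reads of the gene. In that comparison 40.1% of all tested genes passed in either direction. All 13 tested neutrophil markers were higher in untouched mutants than in untouched wild type (median log2 difference 3.70), and the 14 in the matrix summed to 2768 to 2801 scaled CPM against 526 to 589. Macrophage markers (924 to 927 against 454) and epicardium and fibroblast markers (7436 to 7496 against 5739 to 5884) also summed higher in mutants. Sums of cardiomyocyte markers overlapped (121568 to 123590 and 118373 to 130412). The part of these cells in the result was not tested.

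At 2 dpi the mutant libraries, at 243 and 235 scaled CPM, were both above the wild-type ones at 141 and 158. The mutant pair came from lane 7 and the wild-type pair from lane 8, so genotype and lane cannot be told apart here. The difference was 0.68 on the log2 scale (95% interval 0.24 to 1.11; limma adjusted p = 0.0097), a ratio of 1.60, among 57.7% of all genes that passed. It did not pass without the first wild-type library of 2 dpi (0.60, limma adjusted p = 0.0501) or with the pairs averaged (limma adjusted p = 0.072). The 16 macrophage markers in the matrix also summed higher in mutants at 2 dpi, at 1964 to 2004 scaled CPM against 386 to 778. So did neutrophil markers (2656 to 2717 against 456 to 775) and epicardium and fibroblast markers (24103 to 24443 against 16973 to 18676). Cardiomyocyte markers summed lower in mutants (52645 to 53451 against 60098 to 84087). The part of these cells in the result was not tested.

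At 7 dpi the order was the opposite, with mutants at 151 and 144 scaled CPM, both below wild type at 259 and 257. The difference was -0.81 (95% interval -1.24 to -0.38; limma adjusted p = 0.0081), a ratio of 1.75, in a comparison where 27.2% of genes passed. It did not pass without the second mutant library of 7 dpi (-0.78, limma adjusted p = 0.059) or with the pairs averaged (limma adjusted p = 0.0976). With the pairs averaged the comparison called 392 genes higher and 455 lower in mutants, against 1432 and 1532 with both libraries kept. The 27 epicardium and fibroblast markers summed to 15974 to 16081 scaled CPM in mutants and 17931 to 19655 in wild type at 7 dpi. Macrophage markers were also lower in mutants (1291 to 1293 against 1538 to 2114). Neutrophil markers (1250 to 1264 against 929 to 1150) and cardiomyocyte markers (104877 to 105531 against 72694 to 77432) were higher in mutants. The part of these cells in the result was not tested.

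The genotypes were not told apart at 5 and 14 dpi. At 5 dpi the difference was -0.27 (95% interval -0.70 to 0.16; limma adjusted p = 0.318), where 38.6% of genes passed. At 14 dpi it was -0.07 (-0.50 to 0.36; limma adjusted p = 0.821), where 31% passed, and its sign turned without the second wild-type library (0.17) or the first mutant library (0.29) of 14 dpi. These intervals leave room for differences of up to 0.70 at 5 dpi and 0.50 at 14 dpi in size.

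**Figure D2:**
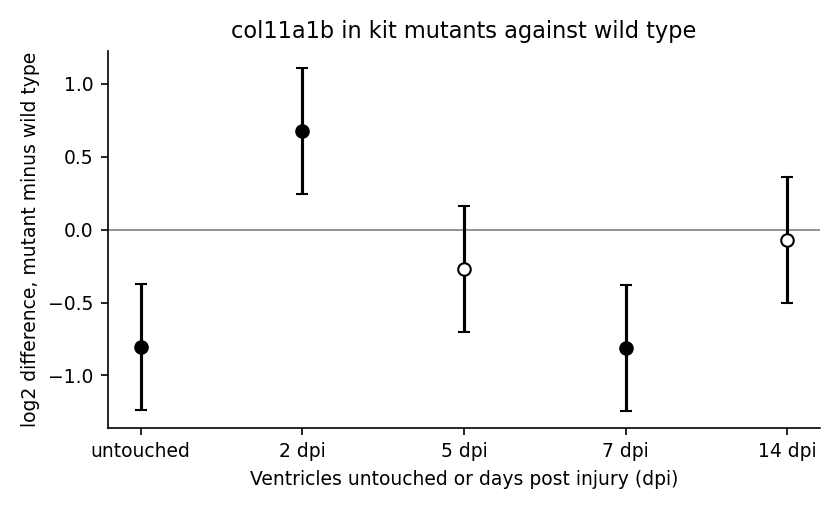
Difference in col11a1b between kit mutants and wild type at each time, in log2(scaled CPM + 1), with 95% intervals from limma. Filled points passed an adjusted p of 0.05: the difference is -0.81 in untouched hearts, 0.68 at 2 dpi and -0.81 at 7 dpi, and the intervals at 5 and 14 dpi include 0.

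Averaged over the 4 injured times, the genotypes differed by -0.12 on the log2 scale, which an exact permutation test within times did not separate from 0 (two-sided p = 0.517 over 1296 assignments, smallest possible 0.00154). Without 2 dpi the mean difference was -0.38 (exact permutation p = 0.0648 over 216 assignments). A pair of groups with 2 libraries each cannot reach 0.05 in such a test, so single times rest on limma.

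The genotype difference itself changed between injured times. Relative to 2 dpi it moved by -0.94 on the log2 scale at 5 dpi (limma adjusted p = 0.0111), and with the near-identical pairs averaged the adjusted p was 0.052. At 7 dpi it moved by -1.48 (limma adjusted p = 7.5e-04), past the threshold under every setting tried. At 14 dpi it moved by -0.75 (limma adjusted p = 0.0603), and it passed without the first wild-type library of 14 dpi (-0.99, adjusted p = 0.026) or the second mutant one (-1.11, adjusted p = 0.0066). These 3 tests were added after the values were seen, and 54.5%, 40.5% and 30.1% of all genes passed in them. All 3 use the mutant pair of 2 dpi, which alone came from lane 7. Lane therefore cannot be told apart from genotype and time in them under any setting.

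Set against untouched hearts of their own genotype, the mutant rise at 2 dpi exceeded the wild-type rise by 1.48 on the log2 scale (95% interval 0.87 to 2.09). Since these rises chose the gene, their differences are a description with no test. The untouched mutant level in them rests on 13 and 15 reads. The differences of the rises were 0.54 at 5 dpi (-0.07 to 1.15), -0.004 at 7 dpi (-0.62 to 0.61) and 0.73 at 14 dpi (0.12 to 1.34). They depend on how low counts are treated: with a pseudocount of 0.25 they were 0.90, 0.36 and 1.09 at 5, 7 and 14 dpi, and with DESeq2 on recovered reads 1.16, 0.62 and 1.38. Without the second untouched wild-type library they were 0.82, 0.28 and 1.02. For background, 40.9%, 34.9%, 18.8% and 33.2% of all genes passed in this comparison at 2, 5, 7 and 14 dpi.

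The paralogue col11a1a also rose after injury, and then fell while col11a1b stayed high. In wild type it stood at 5.33 and 5.66 scaled CPM untouched, 87.1 and 109 at 2 dpi, 29.3 and 24.2 at 5 dpi, 42.6 and 44.9 at 7 dpi, and 5.99 and 13.1 at 14 dpi. In mutants it stood at 1.02 and 1.47 untouched, 69.0 and 63.9 at 2 dpi, 7.47 and 10.8 at 5 dpi, 11.9 and 12.9 at 7 dpi, and 2.05 and 2.65 at 14 dpi. Both genotypes were highest at 2 dpi, with no overlap with any other time. At 14 dpi the mean was 1.74 times the untouched mean in wild type and 1.89 times in mutants. In each genotype both libraries of 14 dpi lay above both untouched ones.

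Against untouched hearts, col11a1a rose in wild type by 3.92 ± 0.24 on the log2 scale at 2 dpi (SE; limma adjusted p = 4.3e-09), by 2.09 at 5 dpi and by 2.79 at 7 dpi (limma adjusted p = 1.4e-05 and 3.5e-07). At 14 dpi its difference was 0.61 (limma adjusted p = 0.0746). In mutants it rose by 4.92, 2.16 and 2.58 at 2, 5 and 7 dpi, and the difference at 14 dpi was 0.58 (limma adjusted p = 0.0677). From 2 to 5 dpi it fell by 1.83 in wild type (limma adjusted p = 2.0e-05) and by 2.75 in mutants (limma adjusted p = 8.7e-08). Mutant levels of col11a1a were below wild type in untouched hearts by 1.54, and at 5, 7 and 14 dpi by 1.47, 1.74 and 1.57 (log2 differences of -1.54, -1.47, -1.74 and -1.57; limma adjusted p of 2.4e-04 or less for each). At 2 dpi its difference was -0.55 (limma adjusted p = 0.0637), whereas col11a1b was higher in mutants at that time. The col11a1a calls in untouched hearts and at 7 dpi use near-identical mutant pairs as separate libraries.

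The log2 difference of col11a1b minus col11a1a within a library shows how the pair parted with time. In wild type it was 0.69 and 0.53 at 2 dpi, 2.53 and 2.74 at 5 dpi, 2.58 and 2.49 at 7 dpi, and 3.86 and 3.33 at 14 dpi. In mutants it was 1.80 and 1.86 at 2 dpi, 3.97 and 3.70 at 5 dpi, 3.55 and 3.38 at 7 dpi, and 4.87 and 5.32 at 14 dpi. Within each genotype every later library was above both of 2 dpi. The mean of the later times exceeded 2 dpi by 2.31 in wild type, which holds no near-identical pair. This pattern was picked out after the values were seen and is given as a description. How the authors' counting treated reads that match both copies is not given, so the split of reads between the paralogues is uncertain.

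**Figure D3:**
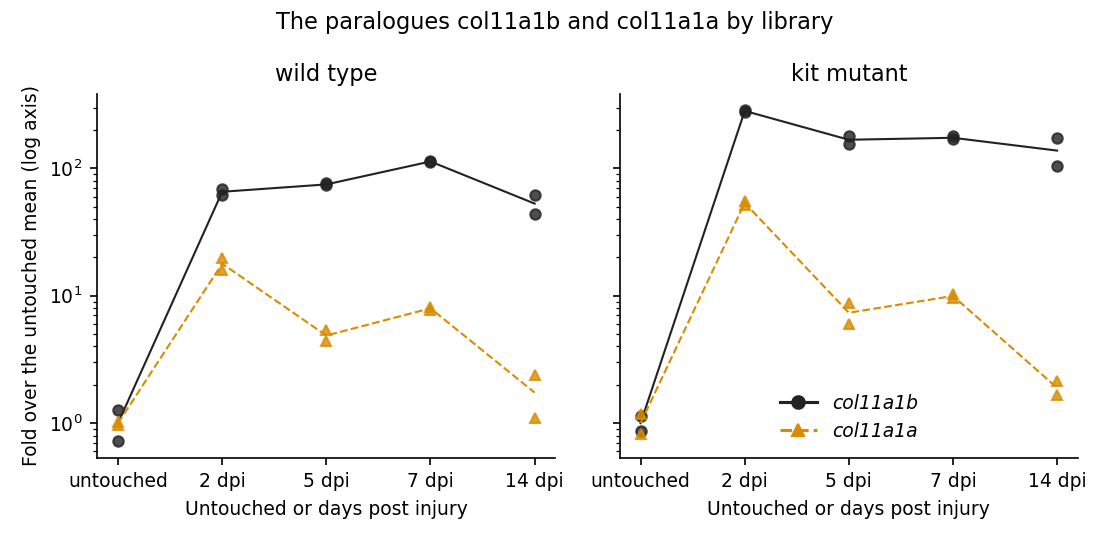
Fold of col11a1b (black circles) and col11a1a (orange triangles) over the mean of the untouched libraries of the same genotype, on a log axis. Points are libraries and lines join group means; at 14 dpi the mean fold of col11a1a is 1.74 in wild type and 1.89 in mutants, and that of col11a1b 52.9 and 138.

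Among the partner chains of collagen XI, col11a2 and col2a1a were scarce and col2a1b was not. col11a2, the alpha 2 chain, passed the filter on low values only through the untouched mutants (3.23 and 3.0 scaled CPM), and every other library held 0.965 scaled CPM or less. In wild type its log2 differences from untouched were 0.20, -0.30, -0.07 and -0.35, none of which passed. In mutants the differences were -1.19, -2.04, -1.52 and -1.79 at 2, 5, 7 and 14 dpi. Since the filter kept the gene only through the untouched mutants, these are given with no test. The collagen II gene col2a1a had 2 reads or fewer in every library and 9 in all. Its copy col2a1b stood at 26.6 and 28.2 scaled CPM in untouched wild type and at 12.9 and 13 in untouched mutants, with 117 to 1020 reads per library. It differed from untouched wild type by -0.73 at 2 dpi (limma adjusted p = 0.0085) and -0.76 at 5 dpi (limma adjusted p = 0.011). Those calls were lost without the first wild-type library of 2 dpi (adjusted p = 0.062) or on CPM as deposited (adjusted p = 0.13), and without the first of 5 dpi (adjusted p = 0.14) or the second untouched one (adjusted p = 0.068). In mutants col2a1b rose by 1.69 at 14 dpi; its differences at 2 and 5 dpi, 0.50 and -0.49, did not pass, and that at 7 dpi, 0.65, did not pass with the pairs averaged (limma adjusted p = 0.50).

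Genes for the collagen I chains, which make up most of the collagen of scars, rose at all times in both genotypes. col1a1a, an alpha 1 chain, went from 942 ± 81.7 scaled CPM in untouched wild type to 3246 ± 1027 at 2 dpi, 2123 ± 16.5 at 5 dpi, 3194 ± 952 at 7 dpi and 2485 ± 221 at 14 dpi (SD, n = 2 libraries). Its rises were 1.75, 1.17, 1.73 and 1.40 on the log2 scale (SE 0.19; limma adjusted p = 2.8e-04 or less). In mutants col1a1a rose by 2.89, 2.49, 2.19 and 2.36. The second alpha 1 gene col1a1b rose by 1.09 to 1.70 in wild type and 1.82 to 2.2 in mutants, and col1a2, the alpha 2 chain, by 1.2 to 1.76 and 2.2 to 2.60. The larger mutant rises stood on lower untouched levels, since the mutant difference from wild type in untouched hearts was -1.06 for col1a1a, -0.63 for col1a1b and -1.10 for col1a2 (limma adjusted p = 3.6e-04, 0.0099 and 1.1e-04). These calls use the near-identical untouched mutant pair as separate libraries.

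Collagen V chains, with which the alpha 1 chain of collagen XI can assemble, had smaller differences than those of collagen I. col5a2a, an alpha 2(V) chain, rose by 0.69, 0.85 and 0.68 in wild type at 2, 7 and 14 dpi, and its call at 5 dpi (0.45, limma adjusted p = 0.016) was lost without any 1 of the 4 libraries compared (adjusted p 0.058 to 0.070). In mutants it rose by 1.31, 0.63, 1.12 and 1.31. col5a3a, an alpha 3(V) chain, rose in mutants by 1.35 at 2 dpi and 1.06 at 14 dpi, with differences of -0.06 at 5 dpi and 0.87 at 7 dpi (limma adjusted p = 0.21 with the pairs averaged). In wild type it differed by 0.41, 0.37 and 0.12 at 2, 5 and 14 dpi, none of which passed, and by 0.63 at 7 dpi (limma adjusted p = 0.015), which was lost without either untouched library or the second of 7 dpi.

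The collagen XXVII genes, encoding another minor fibrillar chain of cartilage, were not uniform. col27a1a fell by 0.66 in wild type at 2 dpi (limma adjusted p = 0.0013) and rose in mutants by 0.91 at 2 dpi and 1.45 at 14 dpi. Its differences at 5 and 7 dpi were -0.10 and -0.35 in wild type. In mutants they were -0.03 and 0.64, the latter with a limma adjusted p of 0.21 with the pairs averaged. Its wild-type call at 14 dpi (-0.57) was lost without the second untouched library (limma adjusted p = 0.059) or the second of 14 dpi (adjusted p = 0.072). col27a1b rose in mutants by 1.34, 1.25 and 1.23 at 2, 7 and 14 dpi, and its wild-type calls at 5 dpi (0.61) and 7 dpi (0.62) were lost without the second untouched library (limma adjusted p = 0.34 and 0.30), the first of 5 dpi (adjusted p = 0.14) and the second of 7 dpi (adjusted p = 0.10), each in its own comparison.

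Of 17 fibrillar chain genes listed, 13 were in the matrix and 11 passed the filter, among them col11a1b. Leaving out col11a2 for the reason given above, 9 others remain. Of these 9, 5, 6, 7 and 4 rose in wild type at 2, 5, 7 and 14 dpi, and 2, 1, 0 and 1 fell. Fewer rose at 5 dpi whichever single compared library was left out. The background was 26.4%, 15.9%, 17.5% and 13.2% of all genes for rises and 25.2%, 17%, 17.3% and 11.6% for falls. The median log2 differences of the 9 were 0.69, 0.61, 0.85 and 0.61, against -0.03 to 0.00 over all tested genes. In mutants 8, 5, 9 and 8 of the 9 rose and 0 fell. With the pairs averaged, 6 of the 9 rose at 7 dpi, where 232 of all 10914 tested genes rose. The mutant medians of the 9 were 1.35, 0.63, 1.25 and 1.45 (0.00 to 0.05 over all genes). Of all genes in mutants, 27.5%, 26%, 8.83% and 21.3% rose and 24.9%, 25.3%, 5.74% and 18.2% fell. Not passing the filter were col2a1a and col5a3b, and col3a1, col5a1, col5a2b and col24a1 were not analysed here.

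**Figure D4:**
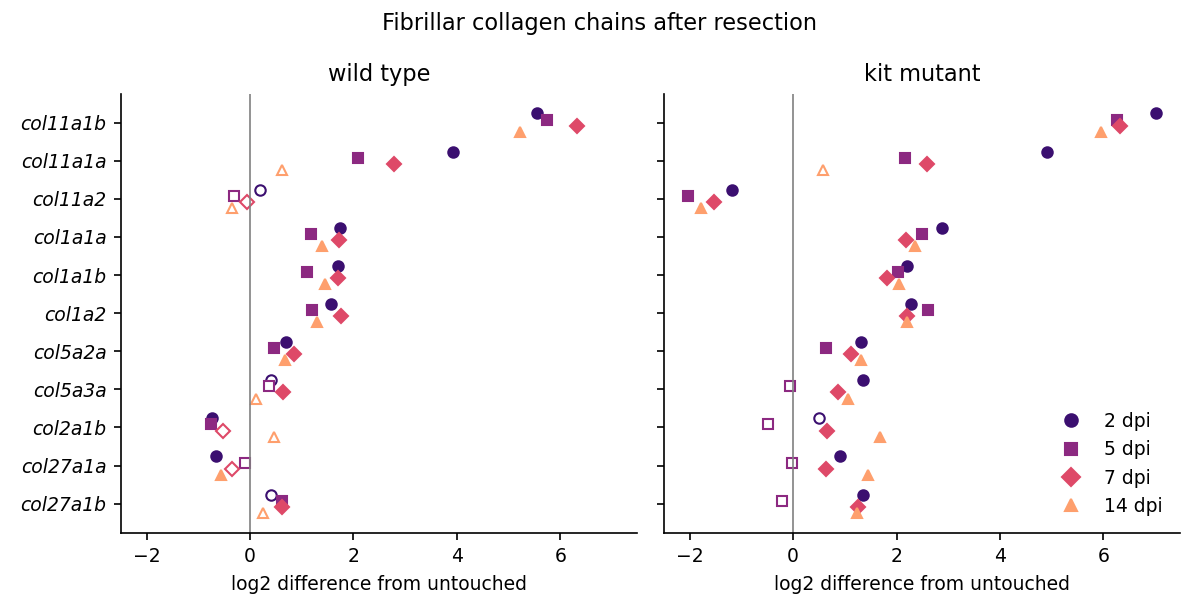
Difference from untouched hearts of the same genotype for the 11 tested fibrillar chain genes, in log2(scaled CPM + 1), at 2, 5, 7 and 14 dpi. Filled symbols passed an adjusted p of 0.05 with limma, except those of col11a1b and of col11a2 in mutants, which are shown as a description with no test; col11a1b's differences of 5.22 to 7.02 lie to the right of every other chain.

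Genes that fold and modify procollagen rose as well, in greatest number at 2 dpi. plod2, a lysyl hydroxylase that prepares collagen for cross-linking, went from 71.7 ± 1.58 scaled CPM in untouched wild type to 312 ± 23.7 at 2 dpi, 259 ± 3.70 at 5 dpi, 335 ± 4.71 at 7 dpi and 168 ± 21.9 at 14 dpi (SD, n = 2 libraries). Its rises were 2.1, 1.84, 2.21 and 1.22 on the log2 scale (limma adjusted p = 2.6e-07 or less), with its highest wild-type level at 7 dpi and its highest mutant level at 2 dpi, as for col11a1b. fkbp10b, a collagen chaperone and prolyl isomerase of the endoplasmic reticulum, rose by 2.42, 1.25, 1.58 and 0.84. serpinh1a, a copy of the collagen chaperone Hsp47, rose by 1.23 at 2 dpi and 0.40 at 7 dpi, while its difference at 5 dpi was 0.14 (limma adjusted p = 0.30) and its call at 14 dpi (-0.30) was lost without any of 3 libraries, the 2 untouched ones and the first of 14 dpi. ppib, cyclophilin B, a prolyl isomerase that acts on procollagen, rose by 1.24, 0.47 and 0.67 at 2, 5 and 7 dpi, and differed by 0.26 at 14 dpi (limma adjusted p = 0.076).

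Over all tested genes, 26.4%, 15.9%, 17.5% and 13.2% rose in wild type at 2, 5, 7 and 14 dpi, and 25.2%, 17%, 17.3% and 11.6% fell. The rises in mutants were 27.5%, 26%, 8.83% and 21.3%. Of the 22 tested genes of this group, 16 rose in wild type at 2 dpi, 9 at 5 dpi, 12 at 7 dpi and 8 at 14 dpi, with median log2 differences of 0.83, 0.26, 0.41 and 0.13. The falls numbered 3, 2, 0 and 2, those at 5 and 14 dpi dropping to 0 or 1 without single libraries. The count at 5 dpi was 14 on CPM as deposited, where the share over all genes is not given here. At 14 dpi fewer rose without the first untouched library or the second of 14 dpi. In mutants 18, 16, 11 and 14 rose. With the pairs averaged, 6 of the 22 rose at 7 dpi, where 232 of all 10914 tested genes rose.

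Genes that trim, cross-link and bind collagen outside the cell rose as well. tgm2b, a transglutaminase that cross-links matrix proteins, rose in wild type by 2.41, 2.09, 2.25 and 0.99 on the log2 scale at 2, 5, 7 and 14 dpi. pcolcea, an enhancer of the protease that trims the C-terminal propeptide, rose by 0.53, 1.08, 1.56 and 0.73. loxl2b and loxl3b, enzymes of the lysyl oxidase family that start cross-links, rose by 0.73, 0.91, 1.23 and 0.88, and by 0.86, 0.61, 0.82 and 0.61. Over all tested genes, 26.4%, 15.9%, 17.5% and 13.2% rose in wild type and 25.2%, 17%, 17.3% and 11.6% fell. The rises in mutants were 27.5%, 26%, 8.83% and 21.3% of all tested genes. Of the 14 tested genes of the group, 9, 9, 9 and 7 rose in wild type, and 2, 3, 3 and 2 fell (1 at 2, 5 and 14 dpi without some single libraries), with medians of 0.69, 0.62, 0.82 and 0.49. In mutants 8, 6, 8 and 11 rose. With the pairs averaged, 4 of the 14 rose at 7 dpi, where 232 of all 10914 tested genes rose.

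Among fibril-associated collagens and proteoglycans, some genes rose and others fell. lum, which encodes the small leucine-rich proteoglycan lumican, a binder of fibrils, went from 16.6 ± 4.18 scaled CPM in untouched wild type to 46.6 ± 6.20, 97.7 ± 12.0, 138 ± 44.0 and 78.1 ± 9.23 (SD, n = 2 libraries), rises of 1.45, 2.50, 2.96 and 2.18 on the log2 scale (limma adjusted p = 9.9e-06 or less). dcn, decorin, rose by 0.53, 0.79, 1.13 and 1.2, and dpt, a dermatopontin gene, by 1.05, 1.65 and 1.53 from 5 dpi on, with a difference of 0.03 at 2 dpi. aspn, asporin, differed by 3.43, 2.76, 2.99 and 2.75 from 0.555 ± 0.349 scaled CPM in untouched wild type. That level lay below the filter, which aspn passed through other groups, so its differences are a description with no test. With aspn counted, these 4 were the genes that rose among 8 tested fibril-associated collagens and proteoglycans at 5, 7 and 14 dpi, and 3 of them at 2 dpi. In wild type the same 3 fell at each time: the collagen IX genes col9a2 and col9a3 and the biglycan gene bgnb. They were named after their values were seen. col9a2, whose product lies on cartilage fibrils, fell by 0.91, 1.13, 1.28 and 1.41. bgnb fell by 1.36, 1.36 and 1.53 at 2, 5 and 7 dpi, and its difference at 14 dpi was -0.78 (limma adjusted p = 0.0146). At 14 dpi 1 of the 8 fell without the first untouched library or the first of 14 dpi, and at 2 and 5 dpi 2 fell without the first untouched library or the first of the time itself. List medians in wild type were -0.05, 0.45, 0.34 and 0.75. In mutants 4, 4, 4 and 6 of the 8 rose at 2, 5, 7 and 14 dpi, and 0 fell. The mutant counts include aspn and keep both libraries of near-identical pairs. The mutant medians were 0.54, 1.07, 0.94 and 1.04. Of all tested genes in mutants, 27.5%, 26%, 8.83% and 21.3% rose and 24.9%, 25.3%, 5.74% and 18.2% fell. Of all tested genes, 26.4%, 15.9%, 17.5% and 13.2% rose in wild type and 25.2%, 17%, 17.3% and 11.6% fell.

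Cartilage genes fell at 2 dpi in wild type, when col11a1b was high. Of 10 tested members of a cartilage list, 0 rose and 7 fell in wild type at 2 dpi, with a median of -0.63. sox5, a transcription factor of chondrocytes, fell by 1.09 (limma adjusted p = 1.5e-05), and matn4, a matrilin, fell by 0.78 at 2 dpi and 1.26 at 5 dpi. At 7 dpi 3 of the 10 rose; among them sox9b, a regulator of cartilage collagen genes in other tissues, rose by 1.19 from 3.4 ± 1.01 to 8.98 ± 1.91 scaled CPM (limma adjusted p = 7.9e-05). The list medians at 5, 7 and 14 dpi were -0.07, -0.02 and 0.13, and in mutants 5, 3, 5 and 6 of the 10 rose at 2, 5, 7 and 14 dpi. Of all tested genes, 26.4% rose and 25.2% fell in wild type at 2 dpi, and 17.5% rose at 7 dpi. The rises in mutants were 27.5%, 26%, 8.83% and 21.3% of all tested genes.

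Epicardium and fibroblast markers were higher at the times when col11a1b was high. The 27 epicardium and fibroblast markers summed to 5739 to 5884 scaled CPM in untouched wild type, 16973 to 18676 at 2 dpi, 17125 to 18198 at 5 dpi, 17931 to 19655 at 7 dpi and 10052 to 12871 at 14 dpi. In mutants the sums were 7436 to 7496 untouched, 24103 to 24443 at 2 dpi, 18346 to 18383 at 5 dpi, 15974 to 16081 at 7 dpi and 11041 to 12204 at 14 dpi. As with col11a1b, the highest sums were at 7 dpi in wild type and at 2 dpi in mutants, although the wild-type ranges of 2, 5 and 7 dpi overlapped. None of these 27 was at or near 0; dcn and lum, described above, are among them. Their part in the rise of col11a1b was not tested.

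Of the 27 epicardium and fibroblast markers, all tested, 17, 21, 22 and 20 rose in wild type and 5, 0, 1 and 0 fell (3 at 2 dpi without the second untouched library or the first of 2 dpi), with medians of 1.04, 0.84, 1.13 and 0.94. Fewer of them rose at 5 and 14 dpi whichever single compared library was left out. wt1b, a transcription factor of activated epicardium, went from 5.04 ± 0.650 to 99.0 ± 0.708 scaled CPM at 2 dpi (log2 rise 4.05, limma adjusted p = 7.4e-11). fn1a, fibronectin, rose by 4.97, 3.48, 3.69 and 2.19, and postnb, periostin of fibroblasts, by 1.25, 2.84, 3.37 and 1.83. In mutants 21, 20, 19 and 18 of the 27 rose, against 27.5%, 26%, 8.83% and 21.3% of all tested genes. Of the 16 tested genes of a list of TGF-beta ligands, receptors and activators, 4, 5, 6 and 7 rose in wild type and 7, 1, 3 and 1 fell, though at 5 dpi 3 rose without the first untouched library or either of 5 dpi, and at 7 dpi 0 or 1 fell without single libraries. They had medians of -0.20, 0.18, 0.13 and 0.16. Of all tested genes, 26.4%, 15.9%, 17.5% and 13.2% rose in wild type and 25.2%, 17%, 17.3% and 11.6% fell. At 2 dpi the TGF-beta rises were thus close to the share over all genes. They were above it at 7 and 14 dpi, and at 5 dpi with all libraries kept. In mutants 7, 5, 3 and 10 of the 16 rose and 3, 7, 0 and 1 fell. Of all tested genes in mutants, 24.9%, 25.3%, 5.74% and 18.2% fell. The 4 tested collagen receptors had medians of -0.22, 0.04, 0.14 and 0.13 in wild type.

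Cardiomyocyte markers moved the other way in wild type. Their 14 members summed to 118373 to 130412 scaled CPM in untouched wild type, 60098 to 84087 at 2 dpi, 78380 to 99086 at 5 dpi, 72694 to 77432 at 7 dpi and 102280 to 119526 at 14 dpi. In mutants the sums were 121568 to 123590 untouched, 52645 to 53451 at 2 dpi, 103615 to 105721 at 5 dpi, 104877 to 105531 at 7 dpi and 87842 to 109246 at 14 dpi. The lowest sums in mutants were thus at 2 dpi, the time of their highest col11a1b. In wild type the lowest mean sum was also at 2 dpi (72092), while col11a1b was highest at 7 dpi (mean sum 75063). The wild-type ranges of these 2 times overlapped. The part of cardiomyocytes in the result was not tested.

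Markers of other cell types moved in several ways. Macrophage markers summed to 454 scaled CPM in both untouched wild-type libraries, 386 to 778 at 2 dpi, 1337 to 1373 at 5 dpi, 1538 to 2114 at 7 dpi and 1174 to 1492 at 14 dpi. In mutants they summed to 924 to 927 untouched, 1964 to 2004 at 2 dpi, 1014 to 1281 at 5 dpi, 1291 to 1293 at 7 dpi and 731 to 825 at 14 dpi. Their highest sums were thus at 7 dpi in wild type and at 2 dpi in mutants, as for col11a1b. At other times the courses differed. The wild-type macrophage range at 2 dpi included the untouched level, and the mutant range at 14 dpi lay below it, while col11a1b was above untouched in both. Of the 16 tested macrophage markers, 10, 16, 15 and 13 rose in wild type at 2, 5, 7 and 14 dpi, and 3 fell at 2 dpi. The shares over all tested genes were 26.4%, 15.9%, 17.5% and 13.2% for rises, and 25.2% for falls at 2 dpi. The untouched and 2 dpi ranges in wild type were 526 to 589 and 456 to 775 scaled CPM for neutrophil markers, 6752 to 7111 and 3266 to 3526 for endothelial and endocardial markers, and 1249 to 1650 and 977 to 1065 for smooth muscle and mural markers. Erythrocyte markers stood at 7850 to 8025 untouched, and parted the libraries of 2 dpi at 1491 and 7029. The part of these cell types in the result was not tested.

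Across the 20 libraries, the genes most alike to col11a1b by Pearson correlation of log2 values included 3 collagen I chains. Among 9001 genes compared, the 10 closest were sfrp1a (r = 0.960), col1a1b (0.948), mmp14a (0.946), crabp2b (0.946), col1a1a (0.941), loxl2b (0.938), rpe65b (0.937), kng1 (0.935), col1a2 (0.932) and plxdc2 (0.931). All 10 rose against untouched hearts in all 8 comparisons. That follows from picking them by likeness to a gene chosen for its rise, and is a description only. The points share groups and untouched hearts, and over the 16 injured libraries the r of the same genes was 0.31 to 0.82, with 0 of the 10 among the 10 closest there. The paralogue col11a1a held place 343 (r = 0.660). Over the 16 injured libraries the order was the other way, with col11a1a at r = 0.703 (place 144). The collagen I chains col1a1a, col1a2 and col1a1b stood there at 0.518, 0.376 and 0.331.

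sfrp1a, a secreted modulator of Wnt signalling, went from 19.9 scaled CPM in untouched wild type to 58.3, 85.9, 94.9 and 66.4, and in mutants from 16.2 to 101, 87.7, 64.5 and 48.6. Its peak was at 7 dpi in wild type and 2 dpi in mutants, as for col11a1b, to which it was picked as most alike. crabp2b, a retinoic acid binding protein, went from 15.6 to 54.2, 66.4, 103 and 59.1 scaled CPM in wild type and from 4.87 to 59.4, 50.7, 50.8 and 39.5 in mutants. mmp14a, a membrane-bound matrix metalloproteinase, rose by 1.13 to 1.76 in wild type and 1.73 to 2.08 in mutants on the log2 scale.

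Over the 16 injured libraries alone, where untouched hearts have no weight, the closest of 8936 genes were cbfb (r = 0.883), lifrb (0.871), vrk2 (0.862), ctsz (0.861), asap3 (0.856), adam8a (0.855), zgc:153118 (0.854), adgrv1 (0.842), scpep1 (0.841) and syvn1 (0.839). cbfb, which encodes the partner subunit of Runx transcription factors, stood in wild type at 37.7, 47.1, 58.9 and 26 scaled CPM at 2, 5, 7 and 14 dpi and in mutants at 51.6, 40.9, 33 and 30.2. lifrb, a receptor of the leukemia inhibitory factor family, stood at 56.8, 48.0, 79.0 and 28.6 in wild type and 122, 29.1, 46.3 and 29.9 in mutants. Both were highest at 7 dpi in wild type and at 2 dpi in mutants, a likeness to col11a1b by which they were picked.

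**Figure D5:**
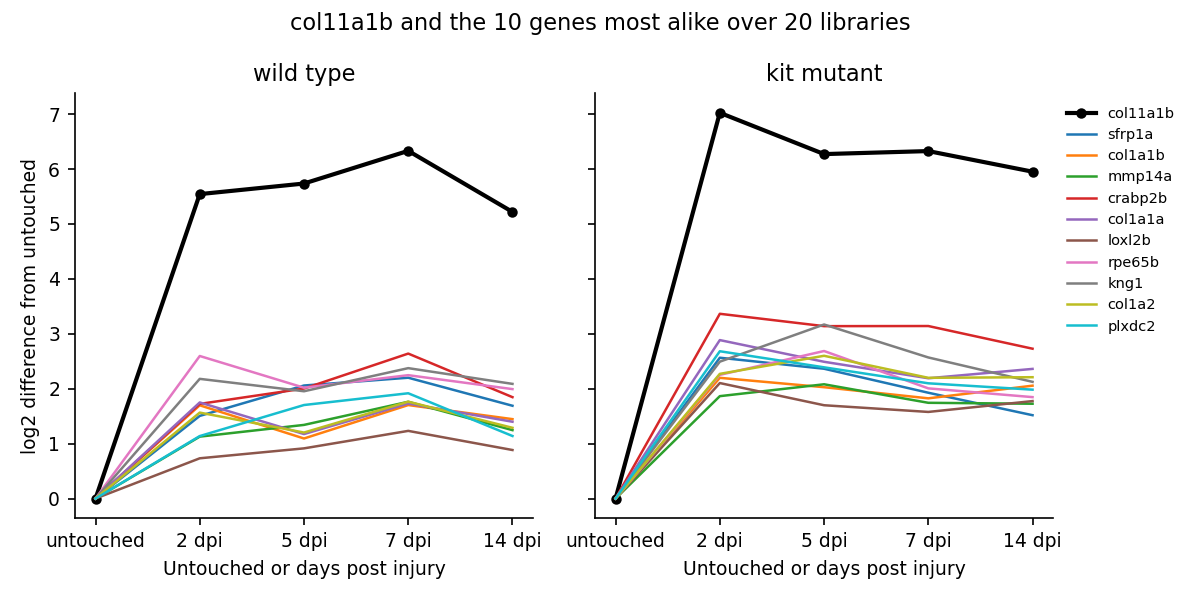
Mean difference from untouched hearts in log2(scaled CPM + 1) for col11a1b (black) and the 10 genes most alike to it over 20 libraries, by time and genotype. The differences of the 10 genes range from 0.73 to 3.36, those of col11a1b from 5.22 to 7.02, which is a description with no test.

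The neighbours of col11a1b on the chromosome are given as a description. Since col11a1b was chosen for its rise, the largest of all tested genes, no neighbour could rise by more. In the GRCz12tu assembly, used for gene order only, 5 coding genes on either side were looked up, and 3 of these 10 passed the filter. abcd3b, a peroxisomal transporter, differed from untouched wild type by -0.58, -0.78, -0.43 and -0.40 at 2, 5, 7 and 14 dpi. arhgap29b differed by -0.71, 0.26, 0.01 and -0.21, and selenoj (listed as selj), a selenoprotein, by -0.43, -0.15, -0.46 and -0.40. In wild type abcd3b passed at 2, 5 and 7 dpi, arhgap29b at 2 dpi and selenoj at 2 and 7 dpi, all as falls. Of all tested genes, 25.2%, 17% and 17.3% fell at those times. In mutants the largest difference among the 3 in size was -1.03, for abcd3b at 2 dpi (limma adjusted p = 2.2e-05). Their largest rise there was 0.99, for selenoj at 5 dpi (limma adjusted p = 4.4e-05). Also in the matrix but below the filter were tecrl2b, LOC100001444, amy2a and vav3b, and abca4b, olfm3b and ntng1b were not analysed here.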

How the data were processed

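The authors deposited a CPM matrix with gene symbols as lines and libraries as columns; every library added up to 1000000 over 14781 named genes, and 3 unnamed lines were dropped. Per the submitters' processing notes, FastQC, featureCounts and danRer10 were used, without versions; aligner and annotation: not given in the sources used here. Per the labels' protocols, libraries were made with an mRNA kit. Groups follow the labelled genotype and time. For 14 dpi the source name gives another day, and the titles' 14 was used.

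CPM were whole multiples of 1 read (100% within 0.1 read), which gave 14.6 to 31.7 M reads per library. Scaled CPM are CPM over median-ratio factors of 0.881 to 1.18, computed on 11000 genes detected in all libraries. The filter was a CPM of 1 in 2 or more libraries, which 10914 of 13956 detected genes passed. limma 3.58.1 in R 4.3.3 fitted the 10 groups on log2(scaled CPM + 1) with an intensity trend, leaving 10 degrees of freedom (16.2 with the prior; 7 and 12.7 with pairs averaged). All p-values are two-sided and Benjamini-Hochberg adjusted over every tested gene; the threshold was 0.05. Permutation tests were exact. A pair counted as near-identical where chi-square per gene averaged under 10 among genes of 20 reads or more; this limit was chosen with the values known.

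The gene and the lists were chosen with earlier results of these data known. Genes named are col11a1b, all fibrillar chains, for each other list up to 4 members by smallest adjusted p in wild type (at least 5 scaled CPM in some group's mean), and the 10 most alike by Pearson correlation over 20 and over 16 injured libraries. Alternatives were unscaled CPM, quantile normalization, dropping the filter or raising it to CPM 5, adding 0.25 in place of 1, a replicate block, fits within a genotype, and omitting each compared library in turn. Recovered reads were also tested with edgeR 4.0.16 and DESeq2 1.42.0. Calls were tested on simulated data. A gene that the naming rule picks is not reported here.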

Additional observations from a re-analysis of the deposited data

Results flagged for a closer look

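The course of col11a1b differed between the genotypes. The difference between mutants and wild type moved by -0.94 from 2 to 5 dpi and by -1.48 from 2 to 7 dpi on the log2 scale, and a test of each change passed with limma. Both tests were added after the values were seen, and 54.5% and 40.5% of all genes passed in them. With the near-identical pairs averaged the first no longer passed and the second still did. The mutant rise over untouched hearts at 2 dpi exceeded the wild-type rise by 1.48, a description, since the rises chose the gene. All of these use the mutant libraries of 2 dpi, which are near-identical and alone carry the lane 7 label. Lane therefore cannot be told apart from genotype and time in them, and why the pairs are near-identical was not tested.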

How the results depend on the processing

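Of 651 alternative values for 49 results, the test or the count kept its side of the threshold in all but some. The exceptions are those below and those given in the report above, for gene lists and for col11a1b with 1 library left out. With near-identical pairs averaged, the genotype differences of col11a1b kept their values and no longer passed in untouched hearts (-0.81), at 2 dpi (0.68) and at 7 dpi (-0.81), nor did the change of the genotype difference from 2 to 5 dpi (-0.94). On CPM as deposited, which moves the median of all genes by up to 0.32, the genotype difference at 14 dpi was 0.12 and the mutant fold at 2 dpi 361. A pseudocount of 0.25 gave differences of the rises of 0.90 at 5 dpi, 1.09 at 14 dpi and 0.36 at 7 dpi. On recovered reads, edgeR gave 0.63 at 7 dpi and 1.39 at 14 dpi, and DESeq2 gave 1.16, 0.62 and 1.38 at 5, 7 and 14 dpi; these differences are descriptions. With DESeq2 the wild-type step from 5 to 7 dpi (0.60) and the change of the genotype difference from 2 to 14 dpi (-0.73) passed. The cause was not tested.

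With 1 library left out, genotype differences ranged from -1.09 to -0.52 untouched, 0.60 to 0.76 at 2 dpi, -0.84 to -0.78 at 7 dpi and -0.43 to 0.29 at 14 dpi. The mutant steps ranged from -0.053 to 0.16 from 5 to 7 dpi and -0.73 to -0.017 from 7 to 14 dpi. Differences of the rises ranged from 0.25 to 0.82 at 5 dpi, -0.29 to 0.28 at 7 dpi and 0.37 to 1.09 at 14 dpi, and the change of the genotype difference from 2 to 14 dpi from -1.11 to -0.39. Replicate numbers did not pair the samples (correlations -0.176 to 0.143 in wild type). With a replicate block no call of col11a1b changed. As that block was coded, its group levels refer to replicate 1 of each genotype. Its genotype differences of -0.90 untouched, 0.58 at 2 dpi and -0.91 at 7 dpi are therefore no check of those given above. Of the 10 genes most alike, 0 were shared by Spearman correlation, 3 in wild type alone and 6 in mutants alone. With 13 to 51 reads in untouched hearts, depth limits the folds and the differences of the rises.

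Over 26 comparisons, averaging the pairs moved the number of genes called by over 1.5 times in 16, down to 232 higher and 60 lower for mutants at 7 dpi against untouched (964 and 627 with both libraries kept). CPM as deposited moved the higher or lower calls in 14, in wild type at 2 dpi to 4356 higher and 1523 lower from 2881 and 2753. With edgeR on recovered reads none of the 26 moved that far, with 2949 higher and 2733 lower in wild type at 2 dpi.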
